A study of Mus musculus with 3 samples.

Results

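Type 1 conventional dendritic cells of mouse skin were taken as barcodes that carried at least 2 unique molecular identifiers (UMIs, counted RNA molecules) of Xcr1 and Clec9a together. They also had at least 500 genes, at most 15% mitochondrial UMIs and at least 10 UMIs of the MHC class II genes H2-Ab1, H2-Eb1 and Cd74. Barcodes with 4 or more UMIs of Ccr7 and Fscn1, any Cd3e UMI, or 10 or more UMIs of Krt5 and Krt14 were left out. This gate held 237 of the 45846 barcodes that passed the cell filter, which were 76 in CIA+VFX, 93 in CIA and 68 in Cont. The cells were thus chosen by their measured UMIs of these genes, whose levels in them are no result.

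The study profiled skin of the back from female C57BL/6 mice aged 9 weeks by droplet single-cell RNA sequencing of 3′ ends. CIA+VFX was skin of the chemotherapy-induced alopecia model given venlafaxine, an inhibitor of serotonin and noradrenaline reuptake, CIA was the same model without venlafaxine, and Cont was skin of mice given vehicle. In all 3 groups the area sampled was the one depilated with wax strips, the skin of mice was pooled, and each group gave 1 library. The labels name neither the chemotherapy drug, the doses nor the number of mice pooled, so the libraries carry no replicate error. No test between CIA+VFX, CIA and Cont was possible, and the intervals given for these comparisons cover counting error only.

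Type 1 dendritic cells take up dead cell material and present it to CD8 T cells, a process called cross-presentation. Their development rests on the transcription factors Irf8 and Batf3 and on the growth factor Flt3 ligand. XCR1 is the receptor for the chemokine XCL1, which natural killer cells and T cells secrete, and CLEC9A binds actin filaments laid bare on dead cells. In mouse dermis many of these cells carry the integrin CD103, encoded by Itgae, and langerin, encoded by Cd207.

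The members held 807855 UMIs in CIA+VFX, 916117 in CIA and 770654 in Cont, of library totals of 155210692, 130557879 and 143164803 UMIs in the same order. Their median depth was 9860.5, 9393 and 10595.5 UMIs, with 2900.5, 2789 and 2711.5 genes per cell. The libraries shared 110 barcodes (CIA+VFX and CIA), 75 (CIA+VFX and Cont) and 79 (CIA and Cont), and 0 of these were members. Both Xcr1 and Clec9a were detected in 46 members of CIA+VFX, 57 of CIA and 34 of Cont, Clec9a alone in 21, 27 and 25, and Xcr1 alone in 9 of each library. Levels are given in CPM, the UMIs of a gene summed over the members of a library and divided by all their UMIs at the scale of 1000000, and each rests on that library alone.

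Cells at the edge of the gate mostly carried other type 1 genes too. Of the 75 members with exactly 2 UMIs of Xcr1 and Clec9a, 84.0% had UMIs of at least 5 of 10 other type 1 genes, and of the 162 members with 3 or more, 95.7% did. Just outside, 44.2% of 156 barcodes with 1 UMI and 1.94% of 5766 barcodes with 0 UMIs met the same count. A further 16 barcodes had 2 or more UMIs of Xcr1 and Clec9a but were left out by Ccr7 and Fscn1, and 81.2% of these met it. Among barcodes with 1 UMI the share was 45.7% in CIA+VFX, 63.5% in CIA and 29.0% in Cont. Depth was not equalised here: the median was 10544.5 UMIs at 3 or more UMIs of the 2 genes and 9523 at exactly 2. It was 8868.5 at 1 and 5947 at 0.

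The name of the cells was checked against markers of other skin and immune cell types. Macrophage markers summed to 348 CPM in CIA+VFX members, 474 CPM in CIA members and 1299 CPM in Cont members, against 9709, 10199 and 9887 CPM in a gate on the type 2 markers Cd209a and Mgl2. Of the Cont member sum, 34.8% came from 1 barcode. C1qb, Folr2, Fcgr1, Mertk and Csf1r were at 0 in CIA+VFX members, whereas 0 of the 15 macrophage markers were at 0 in Cont. The members with at least 5 UMIs of 5 core macrophage markers were 1 in CIA+VFX, 1 in CIA and 9 in Cont, and those with at least 2 UMIs of Cd209a and Mgl2 were 8, 7 and 19. Markers of type 2 dendritic cells summed to 609, 677 and 976 CPM and reached 5 UMIs in 33, 35 and 44 members, and Langerhans cell markers summed to 545, 389 and 820 CPM, so that both were highest in Cont. T and natural killer cell markers summed to 14.9, 16.4 and 2.60 CPM. Fibroblast markers reached 1549 CPM in CIA+VFX, 67.7 in CIA and 62.3 in Cont, and 92.6% of the CIA+VFX sum came from 1 barcode. Many values between libraries are therefore also given for the 68 CIA+VFX, 86 CIA and 48 Cont members that remained after leaving out barcodes with 5 or more UMIs of macrophage, T cell or fibroblast markers or 2 or more of Cd209a and Mgl2. These are called members without other markers, although monocyte, keratinocyte, mast cell and melanocyte markers were not part of this filter.

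Beyond the 2 genes of the gate, the identity genes of type 1 dendritic cells were present in all 3 libraries. Irf8, the lineage's main transcription factor, had 748 CPM in CIA+VFX, 898 in CIA and 637 in Cont. Batf3, its partner, had 111, 146 and 70.1 CPM. Cadm1, an adhesion molecule of this lineage, had 610, 393 and 889 CPM. Naaa, a lysosomal amidase, had 938, 976 and 673 CPM, and Wdfy4, needed for cross-presentation, had 557, 526 and 406 CPM. Itgae had 129, 106 and 68.8 CPM, Tlr3, the sensor of double-stranded RNA, 45.8, 29.5 and 29.8 CPM, and Tlr11, a sensor of microbial profilin, 32.2, 30.6 and 13 CPM. Among these genes the Cont library was the lowest for Irf8, Batf3, Naaa, Wdfy4, Itgae and Tlr11, and the highest for Cadm1. They are only a part of the identity list, of which Cd207 and Cd36 were also higher in Cont than in CIA. Of its 33 measured genes 4 were at least 1.5-fold higher and 6 at least 1.5-fold lower in CIA over Cont. Over all genes these shares were 16.2% and 15.2%.

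Members were compared with 2 other gates on MHC class II positive barcodes of the same libraries, with UMIs summed per library and gate, so that the 3 libraries gave 3 pairs. The tests used edgeR's quasi-likelihood test with the library as a block and Benjamini-Hochberg adjustment over all genes tested, at an adjusted p under 0.05. The Cd209a and Mgl2 gate held 751, 1010 and 1390 barcodes in CIA+VFX, CIA and Cont, but by its markers it was largely macrophage-like, with the mannose receptor Mrc1 in 92.6% and C1qb in 56.6% of its barcodes. The Ccr7 and Fscn1 gate, called mature dendritic cells or mature cells here, held 186, 257 and 211 barcodes and was also mixed. Its fibroblast markers summed to 2228, 2065 and 3929 CPM and its macrophage markers to 1413, 1665 and 1119 CPM. Mature dendritic cell markers, which include the 2 gate genes, summed to 3015, 2959 and 2459 CPM there. Ratios between libraries given below for either gate are over all its barcodes. Both contrasts were also run without barcodes carrying markers of other cell types, which left 153, 241 and 203 barcodes of the first gate and 84, 139 and 96 of the second. Since the gates were set by marker genes, a higher level of genes that travel with Xcr1 and Clec9a describes the gate.

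Against the Cd209a and Mgl2 gate 1493 of 10634 genes (14%) were higher and 2282 (21.5%) lower in members, and against mature dendritic cells 1803 of 10028 (18%) were higher and 2296 (22.9%) lower. Without the CIA library 788 were higher and 1485 lower against the first gate, and 1113 higher against mature cells. Of 35 tested identity genes, 29 were higher and 1 was lower against the Cd209a and Mgl2 gate (median log2 difference 2.96, against -0.05 over all genes), and 28 were higher and 0 lower against mature cells (median 3.11, against -0.03). Without barcodes carrying other markers the counts were 28 higher and 1 lower of 34, and 23 higher and 3 lower of 33. Cadm1 was higher by 5.12 ± 0.27 and 4.69 ± 0.17 (log2, SE, 3 pairs; adjusted p 2.57e-05 and 4.46e-05 by edgeR), and Itgae by 5.70 ± 0.40 and 4.36 ± 0.24 (adjusted p 6.53e-05 and 8.12e-05 by edgeR). Gpr141b, an orphan receptor, was detected in 51.9% of members, against 0.540% of the Cd209a and Mgl2 gate and 1.38% of the mature gate. Batf3 was higher by 1.47 ± 0.32 and 1.43 ± 0.21, but without barcodes carrying other markers its difference from mature cells was -0.01 (adjusted p = 0.979 by edgeR). Flt3, the receptor for Flt3 ligand, likewise differed from mature cells by 1.26 with all barcodes and by -0.33 without those carrying other markers (adjusted p = 0.406 by edgeR).

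Htr7, the serotonin 5-HT7 receptor, was detected in most members of all 3 libraries, but not in members alone. It had 379 UMIs and 469 CPM in CIA+VFX, 367 UMIs and 401 CPM in CIA, and 276 UMIs and 358 CPM in Cont, and was detected in 82.9%, 81.7% and 80.9% of members. The Cd209a and Mgl2 gate had 64.9, 56.0 and 26.6 CPM, mature dendritic cells 157, 144 and 46.9 CPM, and all kept barcodes 11.5, 14.2 and 7.80 CPM. Members held 379 of the 1761 Htr7 UMIs of kept barcodes in CIA+VFX, 367 of 1842 in CIA and 276 of 1100 in Cont, so most lay outside the members. The CPM of Htr7 in each library of members was above that in each library of either gate. For how many of all genes this holds was not counted. Htr7 was higher in members by 3.07 ± 0.20 against the Cd209a and Mgl2 gate (log2, SE, 3 pairs; adjusted p = 5.59e-05 by edgeR) and by 2.13 ± 0.32 against mature cells (adjusted p = 0.00280 by edgeR). Without barcodes carrying other markers the differences were 2.05 (adjusted p = 3.45e-06 by edgeR) and 1.07 (adjusted p = 0.00608 by edgeR).

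Between libraries the Htr7 level of the members moved little. The log2 ratio was 0.16 for CIA over Cont (95% counting interval -0.07 to 0.39), 0.23 for CIA+VFX over CIA (0.02 to 0.44) and 0.39 for CIA+VFX over Cont (0.16 to 0.62), all under the 1.5-fold used for calls. Among 34 genes of serotonin, noradrenaline, dopamine and histamine signalling, Htr7 alone reached the 50 UMIs needed for a comparison of libraries. The reuptake transporters Slc6a4, Slc6a2 and Slc6a3 were among the 21 genes with 0 UMIs in members, and a count of 3, the limit that 0 UMIs allows, is 3.71 CPM in CIA+VFX, 3.27 CPM in CIA and 3.89 CPM in Cont.

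**Figure D1:**
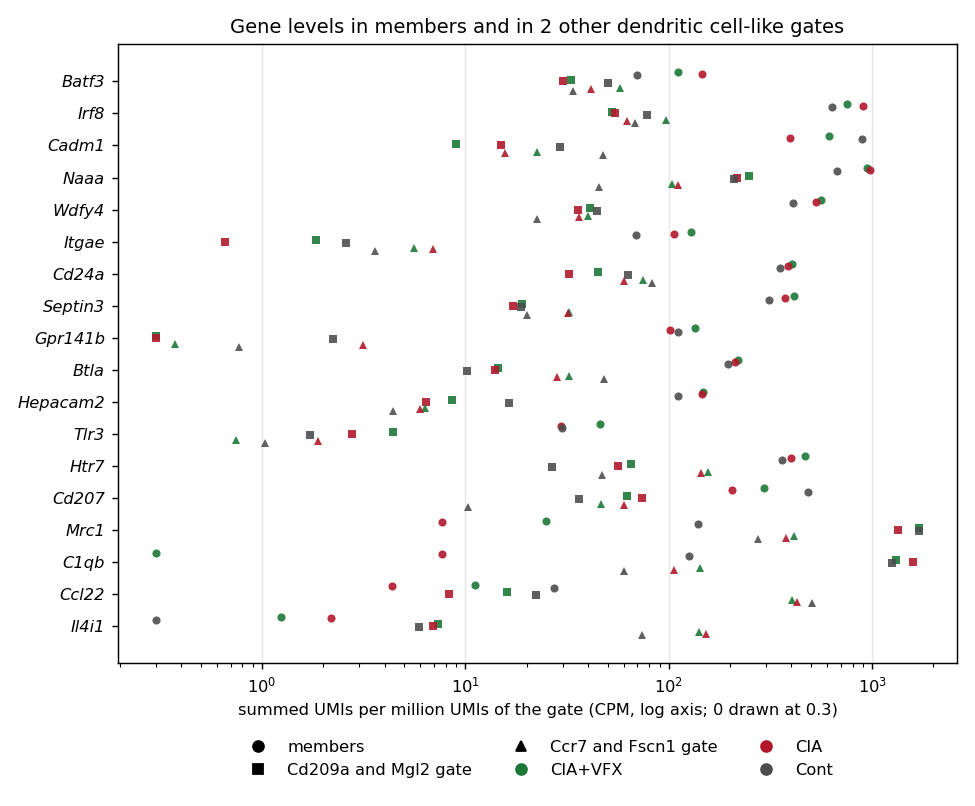
Levels (CPM, log axis, 0 drawn at 0.3) of identity genes, Htr7 and markers of other cells in members (circles), the Cd209a and Mgl2 gate (squares) and the mature Ccr7 and Fscn1 gate (triangles), with 1 point per library and colours for CIA+VFX, CIA and Cont. Htr7 lies between 358 and 469 CPM in members and at or below 157 CPM in both other gates, and C1qb and Mrc1 are far higher in the Cd209a and Mgl2 gate than in members.

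Other gene groups also differed between the gates. The mature gate was itself set by maturation genes, so lower maturation genes in members describe that gate. Of 42 tested maturation genes 28 were lower and 3 higher in members against the Cd209a and Mgl2 gate (median -1.0; 14% of all genes were higher and 21.5% lower), and of 47 tested against mature cells 39 were lower and 0 higher (median -1.82). Cd80, a costimulatory ligand for T cells, was lower by 0.84 and 1.51 on the log2 scale (logFC -0.84 and -1.51, adjusted p 0.0308 and 0.0165 by edgeR), and Il12b, a subunit of interleukin-12, was -3.72 ± 0.36 against mature cells (adjusted p = 0.000505 by edgeR). Many cell cycle genes were higher, where 14% of all genes were higher against the first gate and 18% against mature cells. Here 30 of 51 tested G2/M genes were higher and 2 lower against the first gate, and 32 of 45 higher and 0 lower against mature cells, with medians of 1.07 and 1.84. Of the S phase genes 14 of 38 and 22 of 33 were higher, and 0 were lower in either contrast. Without barcodes carrying other markers, 23 of 41 G2/M and 10 of 28 S phase genes were higher against the first gate, and 20 of 37 and 7 of 25 against mature cells. Mki67, the proliferation marker Ki-67, was higher by 0.96 ± 0.18 and 1.47 ± 0.25 (adjusted p 0.00503 and 0.00425 by edgeR), though its difference from mature cells was 0.76 (adjusted p = 0.0832) without barcodes carrying other markers.

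Class I presentation genes split. Psmb9, a subunit of the immunoproteasome that cuts proteins into peptides, was higher in members by 2.02 ± 0.19 and 2.25 ± 0.16 (adjusted p 0.000193 and 0.000183 by edgeR). B2m, the light chain of class I molecules, was -0.94 (adjusted p = 0.00103 by edgeR) against the Cd209a and Mgl2 gate and -0.15 (adjusted p = 0.612 by edgeR) against mature cells. H2-K1, a class I heavy chain, was -0.98 and -0.35, with adjusted p 0.000475 and 0.213 by edgeR. Of the class I list, 12 of 34 genes were higher and 10 lower against the first gate (14% and 21.5% of all genes), and 14 higher and 3 lower against mature cells (18% and 22.9%). Against mature cells the split was 5 higher and 11 lower of 33 without barcodes carrying other markers, with both gates filtered together. Interferon-induced genes were mostly lower against the Cd209a and Mgl2 gate (40 of 59 lower, 7 higher), and 10 lower and 14 higher of 46 against mature cells, where 16 were lower and 7 higher of 35 without barcodes carrying other markers.

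The members were a similar share of the cells in each library, and their share of the MHC class II positive cells was lowest in the Cont library. They were 0.457% of kept barcodes in CIA+VFX (95% exact binomial interval 0.360 to 0.572), 0.561% in CIA (0.453 to 0.687) and 0.538% in Cont (0.418 to 0.682), and these intervals overlap. Of the MHC class II positive barcodes they were 4.40% in CIA+VFX (3.48 to 5.48), 3.72% in CIA (3.02 to 4.54) and 2.63% in Cont (2.05 to 3.32). Here the interval of CIA overlapped both others, whereas those of CIA+VFX and Cont did not overlap. That denominator itself was 10.4%, 15.1% and 20.5% of kept barcodes, and the Cd209a and Mgl2 gate was 4.51%, 6.09% and 11%. Mature cells were 4 of 80, 6 of 99 and 6 of 74 of the barcodes with 2 or more UMIs of Xcr1 and Clec9a, in the same order of libraries. All shares were measured in dissociated, Percoll-separated suspensions, and how well each cell type survived that was not tested.

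Within the gate, members with langerin RNA differed from those without. Cd207 had 2 or more UMIs in 31 of the 76 CIA+VFX members, 27 of the 93 CIA members and 32 of the 68 Cont members, and 0 UMIs in 36, 57 and 34. Members with Cd207, against those without it, had an Itgae level of 206 against 75.1 CPM in CIA+VFX, 179 against 55.3 in CIA and 116 against 17.4 in Cont. Cadm1 was 895 against 328 CPM, 612 against 254 and 1097 against 585 in the same libraries. Epcam, an adhesion molecule also found on Langerhans cells, was 81.1 against 13.9, 86.1 against 7.63 and 108 against 5.79 CPM, and the tight junction gene Cldn1 was 142 against 13.9, 67.0 against 7.63 and 303 against 2.90 CPM. Ccr2, a receptor for the chemokine CCL2, went the other way, with 60.8 against 172, 28.7 against 145 and 131 against 200 CPM. All 3 libraries gave these directions. The members with Cd207 were also deeper, with median UMIs of 11264 against 9520.5, 11588 against 8865 and 11374 against 10227.5, and since Cd207 UMIs chose the subsets no test was made.

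Set against Cont, CIA members carried more RNA of several heat shock proteins, immunoproteasome subunits, cholesterol synthesis enzymes and mitotic genes and of Il1b, and less of Timd4, Cadm1, Cd80, Serpinb9, Bcl2a1b and the shared cytokine receptor chain Csf2rb. Of 4364 genes with at least 50 UMIs in the 2 libraries together, 707 (16.2%) were at least 1.5-fold higher and 663 (15.2%) at least 1.5-fold lower, with a median log2 ratio of 0.01. Among members without other markers these shares were 17.3% and 14.5% of 3734 genes. The higher macrophage marker sum of Cont members (1299 CPM, against 474 CPM in CIA members) moves with this comparison, as do those of type 2 dendritic cell and Langerhans cell markers. Their part in the ratios was not tested. Values without other markers are given beside many of the ratios for that reason.

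**Figure D2:**
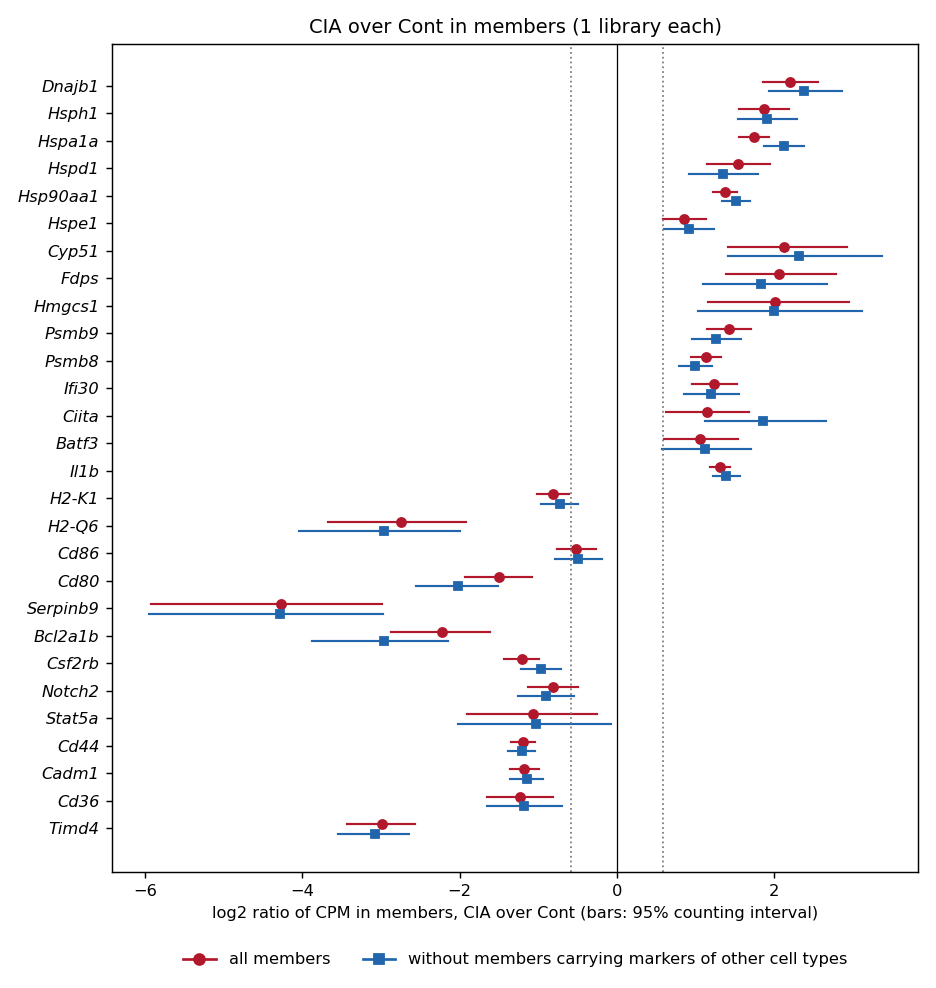
Log2 ratio of CIA over Cont for 28 genes in all members and in members without markers of other cells, with 95% counting intervals and dotted lines at 1.5-fold in either direction. Timd4 lies at -2.99 with all members and -3.08 without them, Cadm1 at -1.18 and -1.14, and the heat shock genes shown lie above 0 in both.

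Heat shock proteins, the chaperones that hold or refold damaged protein, were among the genes with the highest ratios of CIA over Cont. Dnajb1, a cochaperone of Hsp70, had 443 CPM in CIA+VFX, 484 in CIA and 105 in Cont, and its log2 ratio of CIA over Cont was 2.20 (1.86 to 2.56), or 2.38 without other markers. Hsph1, a nucleotide exchange factor of Hsp70, had 566, 484 and 132 CPM and a ratio of 1.87 (1.56 to 2.19). Hspa1a and Hspa1b, near-identical inducible Hsp70 genes whose reads the counting could split, had 925, 1253 and 374 CPM and 776, 809 and 324 CPM. The cytosolic chaperones Hsp90aa1 (1748, 1634 and 631 CPM) and Hspa8 (2254, 2773 and 1418 CPM) and the mitochondrial pair Hspd1 (227, 260 and 89.5 CPM) and Hspe1 (475, 393 and 217 CPM) were likewise lowest in Cont. Hspa5, the chaperone of the endoplasmic reticulum, had 2269, 2050 and 2218 CPM and a ratio of -0.11.

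In the list that joins heat shock and immediate early genes, 10 of 43 measured genes were higher and 6 lower, against 16.2% and 15.2% of all genes, and all 10 that were higher are heat shock genes. The lower ones included the immediate early genes Nr4a3 (81.7, 71.0 and 262 CPM in CIA+VFX, CIA and Cont) and Klf4. In the Cd209a and Mgl2 gate the CIA over Cont ratios of Dnajb1, Hsph1 and Hspa1a were 1.16, 1.54 and 1.15, and in mature dendritic cells -0.16, 0.06 and -0.29. Both heat shock and immediate early genes can be induced while tissue is dissociated, and the part of handling in these ratios was not tested.

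The promoters of these genes were searched for the heat shock element, written as GAANNTTCNNGAA or TTCNNGAANNTTC on either strand, in RefSeq windows of 250 bases before to 50 after each start (GRCm38.p6, an older build than that of the counts). It was found in 198 of 32851 windows (0.603%). Of 11 heat shock genes 8 had windows and 3 of these held it, namely Hsph1, Hspe1 and Hspd1, and Hspd1 shares its region with Hspe1. The windows of Hspa1a, Hspa1b, Dnajb1, Dnaja1 and Hspa5 held no exact run of these letters. Imperfect copies and sites outside the windows were not searched, so this does not show that these genes lack the element. Windows of 2 genes that were higher in CIA are shown, with the matched letters in capitals. Hspe1 lies on the plus strand at chr1:55087898-55088197 and has 2 overlapping matches, the first starting 89 bases before the start of transcription. Hsph1 has 2 windows, and the one shown lies on the minus strand at chr5:149636287-149636586. Its 1 match starts 36 bases after the start of transcription of this window and 15 bases after that of the other.
Hspe1: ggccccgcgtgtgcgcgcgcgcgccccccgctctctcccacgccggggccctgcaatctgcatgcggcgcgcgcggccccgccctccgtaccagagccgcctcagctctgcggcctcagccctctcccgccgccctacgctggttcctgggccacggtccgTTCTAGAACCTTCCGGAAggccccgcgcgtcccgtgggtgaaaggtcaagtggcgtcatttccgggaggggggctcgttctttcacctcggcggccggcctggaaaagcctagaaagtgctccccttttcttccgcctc
Hsph1: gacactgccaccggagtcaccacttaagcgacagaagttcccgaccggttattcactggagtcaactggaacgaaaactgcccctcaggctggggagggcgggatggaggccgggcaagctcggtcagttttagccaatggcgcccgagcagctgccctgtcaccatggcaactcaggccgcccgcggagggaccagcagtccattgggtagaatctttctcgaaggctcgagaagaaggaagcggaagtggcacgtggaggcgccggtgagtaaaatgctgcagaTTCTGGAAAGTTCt

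Enzymes of cholesterol synthesis were higher as a subset of their list. Cyp51, a sterol demethylase, had 60.7 CPM in CIA+VFX, 108 in CIA and 24.7 in Cont, with a log2 ratio of CIA over Cont of 2.13 (1.41 to 2.92). Fdps, which makes farnesyl pyrophosphate, had 125, 119 and 28.5 CPM (ratio 2.06), and Hmgcs1, which acts early in the pathway, 49.5, 73.1 and 18.2 CPM (ratio 2.01). Msmo1, a further enzyme of the pathway, had a ratio of 1.61. Over the whole list the genes went both ways: 5 of 18 measured sterol and lipid genes were higher and 6 lower, against 16.2% and 15.2% of all genes, and without other markers 5 of 15 were higher and 2 lower.

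Several genes that make peptides for presentation were higher, and class I heavy chains differed among themselves. The immunoproteasome subunits Psmb9 and Psmb8 had 404 and 780 CPM in CIA+VFX, 498 and 899 in CIA, and 186 and 410 in Cont, and ratios of CIA over Cont of 1.42 (1.15 to 1.70) and 1.13. Psmb10 and the proteasome activator Psme2 had ratios of 0.97 and 0.84, or 0.71 and 0.58 without other markers, where Psme2 fell short of 1.5-fold. Ifi30, a lysosomal thiol reductase, had a ratio of 1.24, and Ciita, the switch factor of class II genes, of 1.14, or 1.85 without other markers. H2-K1 had 340, 367 and 642 CPM and a ratio of -0.81 (-1.01 to -0.61). H2-Q6 and H2-Q7, nonclassical class I genes whose near-identical sequences the counting could split, had ratios of -2.75 and -0.92. The classical heavy chain H2-D1 was at -0.25, within 1.5-fold, and the nonclassical H2-T23 was higher, at 0.62 and at 0.83 without other markers. Without other markers the values were 1.26 for Psmb9, -0.73 for H2-K1 and -2.96 for H2-Q6. Over the class I list 6 of 29 genes were higher and 4 lower, a share near that of all genes, so the list as a whole did not stand apart. In the Cd209a and Mgl2 gate Psmb9 had a ratio of 0.54 and in mature cells 1.54.

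A number of maturation and costimulation genes were lower in CIA, and 0 were higher. Cd80 had 102 CPM in CIA+VFX, 74.2 in CIA and 210 in Cont, a ratio of CIA over Cont of -1.50 (-1.93 to -1.08) and of -2.02 without other markers. Cd86, the second ligand of CD28, had 251, 270 and 385 CPM and a ratio of -0.52, short of 1.5-fold. Serpinb9, an inhibitor of granzyme B, had 11.1, 5.46 and 105 CPM (ratio -4.27, -5.93 to -2.99), and Bcl2a1b, a survival factor with near-identical copies, 48.3, 30.6 and 143 CPM (ratio -2.22, or -2.97 without other markers). Tnfaip3, a brake on NF-κB, had a ratio of -1.14, and Relb, an NF-κB subunit, of -0.65, or -0.32 without other markers. Of 24 measured maturation genes 0 were higher and 11 lower, against 16.2% and 15.2% of all genes, and the median was -0.52. Among members without other markers 0 were higher and 8 lower of 19, and after leaving out the member with most UMIs of the list in each library 0 were higher and 13 lower of 24.

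Some receptors for growth factors and cytokines were also lower. Csf2rb, the chain shared by the receptors for GM-CSF, interleukin-3 and interleukin-5, had 276 CPM in CIA+VFX, 275 in CIA and 636 in Cont. Its ratio of CIA over Cont was -1.21 (-1.43 to -0.99) in members, -0.97 without other markers and 0.07 in the Cd209a and Mgl2 gate. Il4ra, the interleukin-4 receptor chain, had 35.9, 22.9 and 64.9 CPM (ratio -1.50), the signal transducer Stat5a 22.3, 22.9 and 48.0 CPM (ratio -1.07), and Notch2, a receptor needed by several dendritic cell types, 147, 152 and 266 CPM (ratio -0.81). Flt3 had 146, 157 and 115 CPM and a ratio of 0.44. Of 27 measured genes of the list 0 were higher and 11 lower (median -0.48), against 16.2% and 15.2% of all genes, and without other markers 0 were higher and 6 lower of 22, against 17.3% and 14.5%.

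Lineage and surface genes moved apart within the members. Timd4, a receptor for phosphatidylserine on dying cells, had 114 CPM in CIA+VFX, 58.9 in CIA and 468 in Cont, and a ratio of CIA over Cont of -2.99 (-3.43 to -2.57), or -3.08 without other markers. Thinned to 2000 UMIs per cell, Timd4 was detected in 7.89%, 7.61% and 37.3% of members (28.9%, 21.5% and 57.4% unthinned), against 2.76%, 3.16% and 4.92% of the Cd209a and Mgl2 gate. In that gate the CIA over Cont ratio was -1.03, and in mature dendritic cells -2.05, so Timd4 was also lower there. Cadm1 had a ratio of -1.18 (-1.37 to -0.99), and in thinned cells was detected in 47.4%, 40.2% and 76.1% of members (81.6%, 72.0% and 86.8% unthinned), against 1.66%, 1.73% and 3.94% of the Cd209a and Mgl2 gate. Batf3 was higher in CIA, with a ratio of 1.06 (0.60 to 1.55), and in the Cd209a and Mgl2 gate had a ratio of -0.74. Itgae had a ratio of 0.62 and Irf8 of 0.50. Cd207 had 292, 204 and 484 CPM and a ratio of -1.25, which was -0.22 without other markers. Entpd1, the enzyme CD39 that degrades extracellular ATP, had 121, 40.4 and 208 CPM (ratio -2.36), and Cd44, a hyaluronan receptor, 829, 574 and 1313 CPM (ratio -1.19).

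Other lists fixed for these cells gave smaller or mixed counts in CIA over Cont, read against 16.2% higher and 15.2% lower over all genes. Of 22 measured genes for uptake of dead cells 1 was higher and 9 were lower (1 and 5 of 19 without other markers), and the lower ones included Timd4 and the scavenger receptor Cd36 (68.1 CPM in CIA+VFX, 79.7 in CIA and 187 in Cont, ratio -1.23). Of 16 apoptosis regulators 0 were higher and 6 lower, but without other markers 1 was higher and 3 were lower of 12. Among 10 targets of p53, the factor that many chemotherapy drugs activate, 1 was higher and 1 lower. Of 13 glucocorticoid-responsive genes 2 were higher and 4 lower, of 16 class II presentation genes 2 and 2, and of 25 interferon-induced genes 5 and 5. Without the member with most UMIs of the interferon list in each library, 3 were higher and 2 lower of 20. In Cont that member held 23.7% of the list's UMIs and also had 348 UMIs of macrophage markers. Of the 33 measured identity genes 4 were higher and 6 lower, so that the lineage's genes did not shift one way as a list.

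Among secreted factors, Il1b, the cytokine interleukin-1β, had 1484 CPM in CIA+VFX, 2117 in CIA and 855 in Cont, with a ratio of CIA over Cont of 1.31 (1.18 to 1.44). The same ratio was 1.0 in the Cd209a and Mgl2 gate and 1.08 in mature cells, where Il1b was at 3132, 3583 and 1786 CPM and 3751, 5148 and 2436 CPM. Ccl2 and Cxcl2, chemokines for monocytes and neutrophils, had ratios of -4.81 and -3.57, but 77.6% and 53.9% of their Cont UMIs came from 1 barcode each, and without other markers the ratios were -0.52 and -1.12. The macrophage genes Mrc1 (24.8, 7.64 and 139 CPM) and C1qb (0, 7.64 and 126 CPM) were high in Cont, and 67.0% of the Cont C1qb UMIs came from 1 barcode. Plet1, a surface protein, had 188, 177 and 62.3 CPM and a ratio of 1.51 (1.03 to 2.0), and Rsrp1, which encodes an arginine- and serine-rich protein, 254, 409 and 125 CPM and a ratio of 1.72 (1.39 to 2.06).

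**Figure D3:**
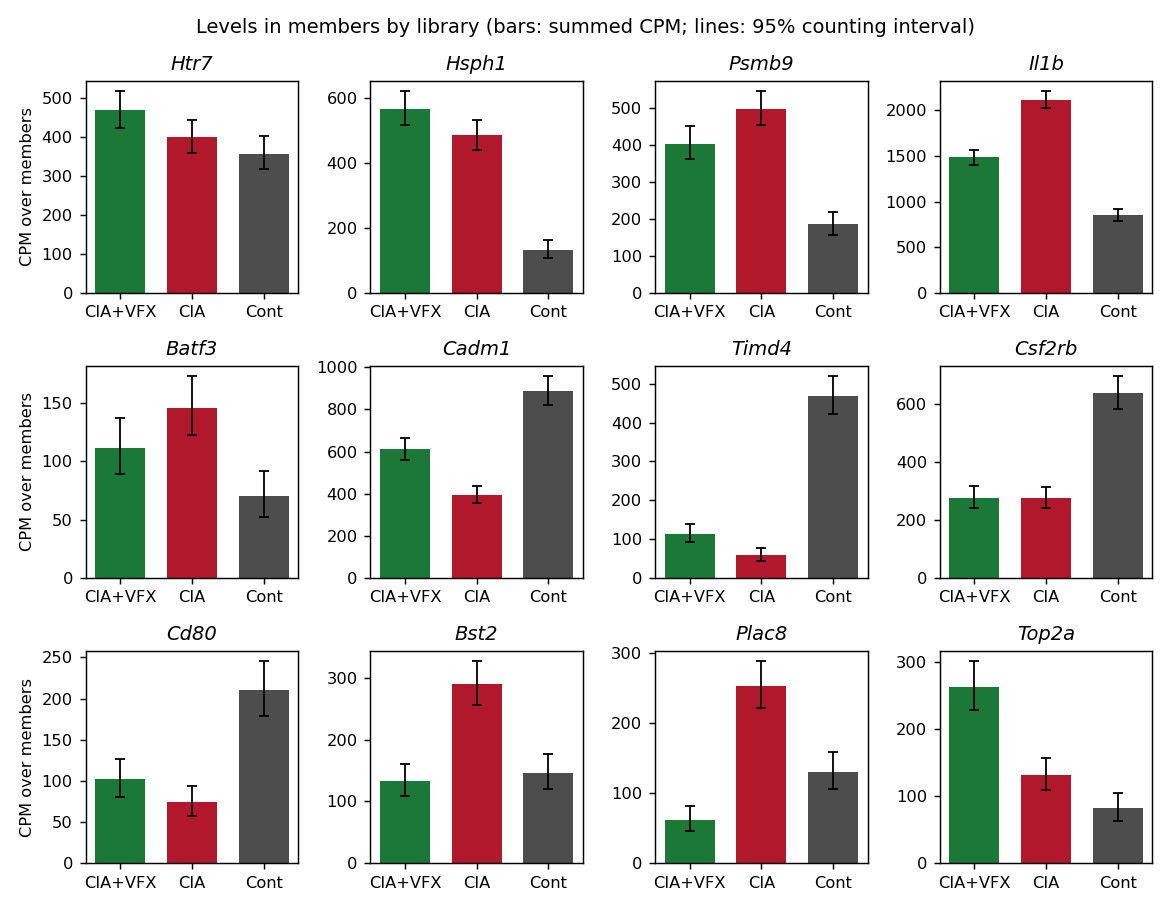
Levels in members (CPM of summed UMIs) of 12 genes in CIA+VFX, CIA and Cont, as bars starting at 0 with 95% Poisson counting intervals, 1 library per bar. Timd4 stands at 468 CPM in Cont and at 114 and 58.9 CPM in CIA+VFX and CIA, and Top2a is highest in CIA+VFX at 262 CPM.

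CIA+VFX and CIA members differed less from each other than either did from Cont. Of 4493 measured genes 324 (7.21%) were at least 1.5-fold higher in CIA+VFX and 230 (5.12%) at least 1.5-fold lower. Interferon-induced genes were lower: 1 of 22 measured was higher and 10 were lower, with a median of -0.51, against 0.02 over all genes. Part of this rested on 1 CIA member, which held 9.49% of all interferon-list UMIs of that library. It held 83.8% of the library's Isg15, 91.0% of its Ifih1 and 82.6% of its Oasl1 UMIs in members. That barcode had 12386 UMIs, of which 56 were of macrophage markers, 6 of Cd209a and Mgl2, 2 of Xcr1 and 0 of Clec9a. After leaving out the member with most UMIs of the list in each library, 0 of 17 were higher and 6 lower (median -0.35), and among members without other markers 0 were higher and 5 lower of 17 (median -0.31).

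Of single interferon genes, Bst2, the antiviral protein tetherin, had 132 CPM in CIA+VFX, 290 in CIA and 147 in Cont. Its ratio of CIA+VFX over CIA was -1.13 (-1.47 to -0.80), or -0.78 without other markers, and in the Cd209a and Mgl2 gate and mature cells it was -0.63 and -0.56. Ifi27l2a, an interferon-induced gene, had 58.2, 158 and 218 CPM (ratio -1.44) and Ifitm3, which blocks viral entry, 207, 354 and 632 CPM (ratio -0.77, or -0.25 without other markers). Phf11b had 39.6, 107 and 40.2 CPM and a ratio of -1.43. Plac8, a gene of monocytes among others, had 61.9, 253 and 130 CPM and a ratio of -2.03 (-2.50 to -1.59), or -1.50 without other markers. That filter did not use monocyte markers, whose sum was also lower in CIA+VFX than in CIA members. H2-T23, a nonclassical class I gene, had 201, 341 and 222 CPM and a ratio of -0.76.

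Genes higher in CIA+VFX members over CIA included Entpd1, Heatr5a, Nedd4l, Reep3, Klf7 and Top2a. Top2a, the topoisomerase of dividing cells, had 262 CPM in CIA+VFX, 131 in CIA and 81.7 in Cont, with a ratio of CIA+VFX over CIA of 1.0 (0.67 to 1.34), or 1.22 without other markers. In the Cd209a and Mgl2 gate the same ratio was -0.61 and in mature cells -0.69. Of 15 measured S phase genes 5 were higher and 0 lower (7.21% of all genes were higher), among them Pola1, a subunit of DNA polymerase alpha (92.8, 49.1 and 45.4 CPM), and Pcna, the polymerase clamp (158, 96.1 and 106 CPM, ratio 0.72). Of 31 G2/M genes 3 were higher and 0 lower. Entpd1 had a ratio of 1.59, or 1.31 without other markers. Cadm1 and Timd4 had ratios of 0.64 and 0.95, but of 0.51 and 0.52 (-0.04 to 1.09 for Timd4) without other markers, where neither reached 1.5-fold. Heatr5a, Nedd4l, Reep3 and Klf7 had ratios of 1.37, 1.11, 1.11 and 1.06. Col1a1, a collagen gene, was also higher in CIA+VFX, at 227, 7.64 and 10.4 CPM, but 96.2% of its CIA+VFX UMIs came from 1 barcode.

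Of the cytokines and chemokines 0 of 11 measured were higher and 6 lower in CIA+VFX over CIA (7.21% and 5.12% of all genes), and 1 was higher and 2 were lower of 8 without other markers. Il1b had a ratio of -0.51, and Ccl4, a chemokine that draws T cells and monocytes, had 249 CPM in CIA+VFX, 624 in CIA and 536 in Cont, with a ratio of CIA+VFX over CIA of -1.33 (-1.57 to -1.09), or -0.97 without other markers. In the Cd209a and Mgl2 gate the ratio of Ccl4 was 0.85. Of the heat shock genes, Dnajb1 and Hsph1 stayed within 1.5-fold between CIA+VFX and CIA, and maturation genes split 3 higher and 2 lower of 23, near the shares over all genes.

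The comparison of CIA+VFX with Cont shares the Cont library with that of CIA, so like values in both are not independent. Of 4237 measured genes 629 (14.8%) were at least 1.5-fold higher and 508 (12%) at least 1.5-fold lower. Of 25 maturation genes 1 was higher and 15 were lower, with a median of -0.62 against 0.04 over all genes, and without other markers 0 were higher and 9 lower of 18. The ratio of CIA+VFX over Cont was -1.05 for Cd80, -3.24 for Serpinb9 (-4.75 without other markers, with 3 UMIs in CIA+VFX), -1.20 for Csf2rb and -2.04 for Timd4. It was 2.08 for Dnajb1, 2.10 for Hsph1, 1.12 for Psmb9 and 0.80 for Il1b. B2m had 977 CPM in CIA+VFX, 1370 in CIA and 1809 in Cont, a ratio of CIA+VFX over Cont of -0.89 (-0.66 without other markers), and 10 of 29 class I genes were lower and 7 higher. Gpr183, a receptor for oxysterols that guides dendritic cells, had 290, 218 and 139 CPM and a ratio of CIA+VFX over Cont of 1.06.

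Genes of mitosis and the S phase list had a lower summed level in Cont members than in CIA+VFX and CIA members. The S phase sum was 1424 CPM in CIA+VFX, 1018 in CIA and 894 in Cont. Of the G2/M list 14 of 27 measured genes were higher and 1 lower in CIA over Cont (16.2% of all genes were higher), and 16 of 26 higher and 1 lower in CIA+VFX over Cont (14.8%). Without other markers these were 10 of 22 and 14 of 22 higher. Of the S phase list 0 of 11 were higher in CIA over Cont and 7 of 14 in CIA+VFX over Cont. The latter was 3 of 14 without other markers, and 0 were lower in both comparisons among all members. After leaving out the member with most UMIs of the list in each library, the higher ones were 3 of 9 and 7 of 11. A sum of 20 mitosis genes had 1352 CPM in CIA+VFX members, 1064 in CIA members and 541 in Cont members. Thinned to 2000 UMIs per cell, at least 2 UMIs of these genes were found in 18.4% of CIA+VFX members (10.5 to 29.0), 25.0% of CIA members (16.6 to 35.1) and 10.4% of Cont members (4.30 to 20.3), or 43.4%, 34.4% and 25.0% unthinned. The intervals overlap, and the order of CIA+VFX and CIA differed between the thinned share and the summed level. With the whole G2/M list in place of these 20 genes the thinned shares were 65.8%, 75.0% and 73.1%, so Cont was not the lowest by that measure. In the Cd209a and Mgl2 gate the thinned shares for the 20 genes were 11.3%, 11.1% and 5.53%. Ube2c, which marks proteins for destruction in mitosis, had 144, 136 and 50.6 CPM, Birc5, the survivin gene, 82.9, 81.9 and 32.4 CPM, and Ccnb2, a mitotic cyclin, 37.1, 52.4 and 10.4 CPM.

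**Figure D4:**
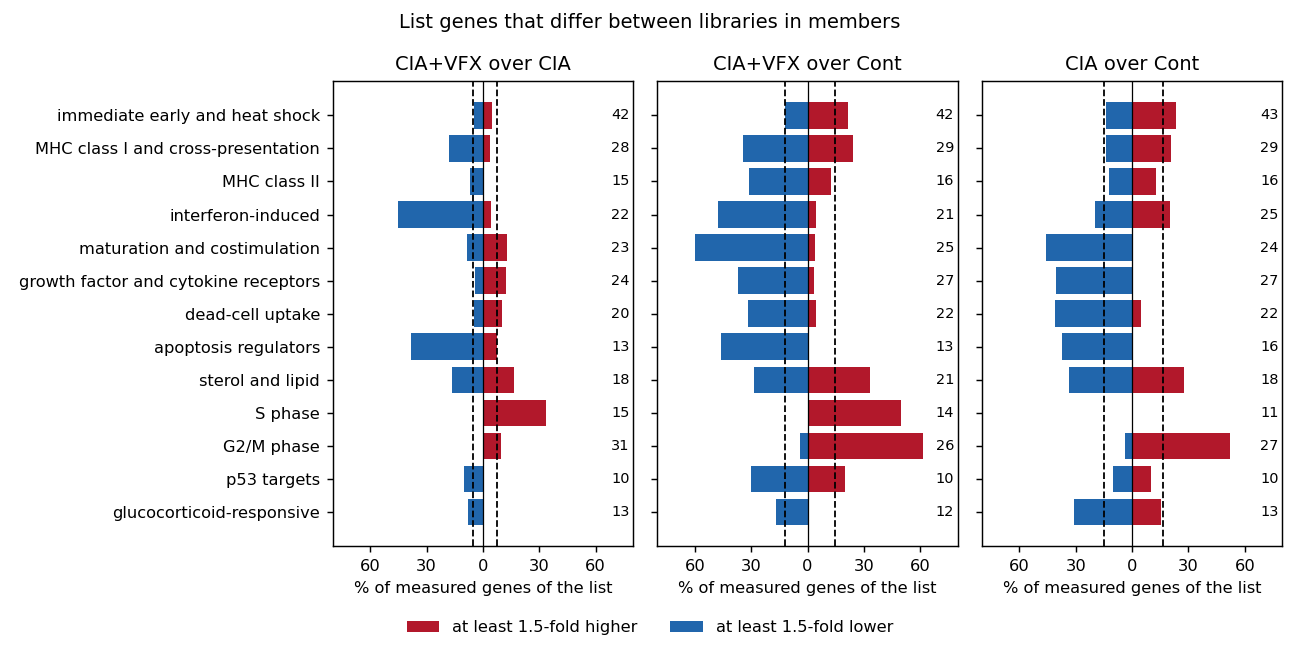
Percent of the measured genes of each list that were at least 1.5-fold higher (right) or lower (left) in members, for CIA+VFX over CIA, CIA+VFX over Cont and CIA over Cont, with dashed lines at the percent over all genes and the number of measured genes beside each bar. Maturation genes and growth factor receptors extend to the lower side in both comparisons with Cont, and G2/M genes to the higher side.

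The ligands of the receptors that define these cells were looked up in the other barcodes. Xcl1 was at 20.2 CPM over all kept barcodes of CIA+VFX, 18.3 CPM in CIA and 59.5 CPM in Cont. In barcodes gated on Ncr1, a receptor of natural killer cells and some innate lymphoid cells, Xcl1 was at 2148 CPM in 76 barcodes of CIA+VFX, 2100 CPM in 53 barcodes of CIA and 2126 CPM in 165 barcodes of Cont. The CPM of that gate was thus alike in the 3 libraries, and the gate held most barcodes in Cont. It held 27.7%, 28.2% and 33.5% of the Xcl1 UMIs of kept barcodes in CIA+VFX, CIA and Cont. Barcodes gated on Cd3e had 193, 120 and 234 CPM and held 38.7%, 34.7% and 20.6% of these UMIs. Members had 1 UMI in each library. Flt3l, the growth factor that binds FLT3, was at 9.20, 12.4 and 11.8 CPM over all kept barcodes, and barcodes gated on collagen genes, at 23.1, 27.8 and 38.4 CPM, held 38.2%, 41.0% and 55.5% of its UMIs. Csf2, encoding GM-CSF, a ligand that signals through Csf2rb, was at 4.66, 8.35 and 5.24 CPM over all kept barcodes. How much of these ligands reached the members was not measured.

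**Figure D5:**
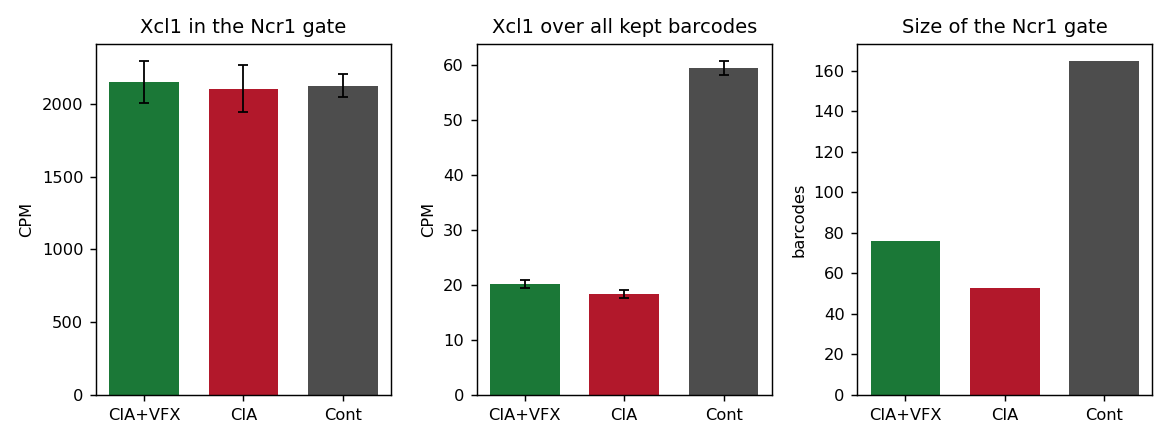
Xcl1 in CPM in barcodes gated on Ncr1 and over all kept barcodes, and the number of barcodes in the Ncr1 gate, for CIA+VFX, CIA and Cont, 1 library each. The level within the gate is between 2100 and 2148 CPM, whereas the gate holds 76, 53 and 165 barcodes. These barcodes hold 27.7%, 28.2% and 33.5% of the Xcl1 UMIs of kept barcodes.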

How the data were processed

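The authors deposited UMI counts per gene and barcode, 1 matrix per library. Per the labels' protocols, dissociated skin was cleared of red cells and debris and run on the 10x GEM-X 3′ v4 kit. Per the submitters' processing notes Cell Ranger 8.0.1 and FastQC 0.11.7 were used with GRCm39. The 18987 (CIA+VFX), 17675 (CIA) and 14529 (Cont) deposited barcodes had totals of 130557879 to 155210692 UMIs. The cell filter (500 genes, 15% mitochondrial UMIs) left 16635, 16573 and 12638 barcodes, and 0 barcodes outside this filter met the rest of the gate. Doublets were scored by the share of simulated doublets among nearest neighbours, with a rate of 0.4% per 1000 barcodes, and were removed only as an alternative; 3, 1 and 3 members were called.

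Raw counts were summed over members per library and divided by the sum (CPM). Log2 ratios between libraries used no pseudocount and have exact conditional binomial intervals (95%). A gene was measured with at least 50 UMIs in the 2 libraries together and called at 1.5-fold. With 1 library per group this comparison has no test. For members against the other gates, edgeR 4.0.16 (R 4.3.3) fitted the summed counts with TMM scaling, filterByExpr and the library as a block. On simulated data with 200 genes changed 4-fold, 199 were recovered with 8 false calls among 10312 genes (Cd209a and Mgl2 gate) and 198 with 12 among 9754 genes (mature gate). The changed genes were drawn from those with higher counts, and all genes had the same dispersion and no library effect. Recovery at lower counts, smaller changes or larger dispersion was not tested. DESeq2 1.42.0 was an alternative. The replicate unit there is the library, paired by origin from 1 suspension.

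Genes named were the 10 highest and 10 lowest ratios per comparison among those with at least 100 UMIs, the 12 highest and 12 lowest per edgeR comparison, identity genes, and up to 6 per list; further genes were chosen after their values were seen. The members and lists were chosen with earlier results of these data known. Library ratios are given for all members and, for many genes, also without other markers. Python 3.11.15, numpy 2.4.6, scipy 1.17.1 and pandas 2.3.3 were used. Some genes of these lists are not reported here.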

Additional observations from a re-analysis of the deposited data

Results flagged for a closer look

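The values here are log2 ratios between 2 libraries that pointed one way in members and the opposite way in another gate of the same libraries, each by at least 1.5-fold. With 1 library per group none of these differences was tested.

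Batf3 was at 1.06 in members and -0.74 in the Cd209a and Mgl2 gate for CIA over Cont, and at 0.67 and -0.61 for CIA+VFX over Cont. Cd207 was at -1.25 in members for CIA over Cont, against 1.03 in the Cd209a and Mgl2 gate and 2.54 in mature dendritic cells, and at -0.73 for CIA+VFX over Cont, against 0.79 and 2.17. Cd207 was near 0 in members without other markers, so its part in these flags moves with those barcodes.

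Cadm1 was at 0.64 in members and -0.73 in the Cd209a and Mgl2 gate for CIA+VFX over CIA, although that gate held only 8.98 CPM in CIA+VFX and 15 CPM in CIA. Ccl4 was at -1.33 and 0.85 in the same comparison and gate. Top2a was at 1.0 in members for CIA+VFX over CIA, against -0.61 in the Cd209a and Mgl2 gate and -0.69 in mature cells.

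For CIA+VFX over Cont, Plac8 was at -1.07 in members, against 0.66 in the Cd209a and Mgl2 gate and 1.41 in mature cells; 45.0% of the Cont member UMIs of Plac8 came from 1 barcode, and without other markers the ratio in members was -0.30.

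The other flags were genes of other cell types, and the values of Ccl2, Col1a1 and C1qb rest largely on 1 barcode each. Against mature cells, Ccl2 was at -4.81 in members and 1.18 in mature cells for CIA over Cont, and C1qb at -4.04 and 0.81. For CIA+VFX over Cont, Col1a1 was at 4.45 in members and -1.16 in mature cells, Mrc1 at -2.49 and 0.60, and C1qb at -5.08 or lower in members, computed against a floor of 3 UMIs over the CIA+VFX members because they held 0, and 1.23 in mature cells.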

How the results depend on the processing

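No paired analysis was possible because each group has 1 library, so comparisons between libraries carry no replicate block. In edgeR, the fit with no replicate block called 3320 genes against the Cd209a and Mgl2 gate and 3822 against mature cells, where the blocked fit called 3775 and 4099. Over all alternatives 1937 of 2248 gene values between libraries moved by less than their counting interval and 301 moved further. A further 10, each at least 1.5-fold in either direction with all members, turned sign. Smaller ratios that changed sign were not counted as turned. For CIA over Cont, Nlrc5 was at 0.17 with all members and -0.35 without other markers, and Mcm6 at 0.24 and -0.15.

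Of the turned values, C1qb was at 0.84 for CIA over Cont without other markers, on 6 against 2 UMIs, and at 0.10 for CIA+VFX over Cont, on 0 against 2 UMIs with a floor of 3 set for CIA+VFX, so neither is a measured change of sign. Cxcl2 for CIA+VFX over CIA was at 0.51 with a gate of at least 4 UMIs of Xcr1 and Clec9a and at 0.26 without other markers. With the gate of 4 UMIs Ifitm3 was at 0.89 for CIA+VFX over CIA and Plac8 at 2.47 for CIA+VFX over Cont. Bcl2a1b was at -0.47 for CIA+VFX over CIA without other markers. Col1a1 was at -0.24 for CIA+VFX over CIA and -0.61 for CIA+VFX over Cont without called doublets, and at -0.26 for CIA+VFX over Cont without other markers. The cause was not tested.

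Counts of genes moved with depth and threshold. Higher and lower genes were 134 and 172 for CIA over Cont, 73 and 75 for CIA+VFX over CIA, and 83 and 120 for CIA+VFX over Cont with members thinned to 2000 UMIs, which leaves fewer genes measured. They were 1394 and 1159, 869 and 596, and 1375 and 914 with a minimum of 20 UMIs. They were 161 and 217, 43 and 22, and 116 and 148 with a minimum of 200 UMIs, and 216 and 228, 61 and 44, and 186 and 176 at 2-fold.

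The ratio of member shares was 1.04 for CIA over Cont, 0.814 for CIA+VFX over CIA and 0.849 for CIA+VFX over Cont of kept barcodes. It was 1.68 for CIA over Cont and 1.84 for CIA+VFX over Cont among the 3 dendritic cell gates together. Among MHC class II positive barcodes it was 1.18 for CIA+VFX over CIA and 1.68 for CIA+VFX over Cont. For CIA+VFX over Cont it was 1.36 with at least 4 UMIs and 1.21 with the gate applied to thinned counts. CIA over Cont stayed above 1 under every setting run, but was only 1.04 of kept barcodes, where the intervals of the shares overlap. The settings reuse the same libraries, so they are no independent support. The other 2 ratios changed side with the denominator or, for CIA+VFX over Cont, also with the gate.

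In edgeR, leaving out 1 library in turn gave 788 to 1446 higher and 1485 to 2203 lower genes against the Cd209a and Mgl2 gate, and 1113 to 1792 higher and 1643 to 2477 lower against mature cells; the lowest of each came without CIA. Without barcodes carrying other markers, an alternative chosen after seeing the data, 1265 genes were lower against the Cd209a and Mgl2 gate, and 923 were higher and 1140 lower against mature cells. DESeq2 called 1173 higher against mature cells. The counts of list genes without the member holding most UMIs of the list were also chosen after seeing the data.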
